A study of Mus musculus with 15 samples.

Results

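The genes described here are 10 members of the myostatin and activin branch of TGF-beta signalling, chosen by name from the 56953 genes of each deposited table. They comprise 4 ligand genes (Mstn, Gdf11, Inhba and Inhbb), 4 receptor genes (Acvr1b, Acvr1c, Acvr2a and Acvr2b) and 2 genes of secreted antagonists (Fst and Fstl3). Bulk RNA sequencing covered 15 libraries of wild-type 129 mice, given in the labels as males aged 10 weeks. Muscle stem cells (MuSCs), which rebuild damaged fibres, gave 3 libraries from biopsies before transplantation and 3 from the same mice (5, 6 and 11) after their own MuSCs had been transplanted, taken at a site that received no cells. Quadriceps femoris muscle gave 6 libraries of transplanted mice (4, 14, 94, 5, 6 and 11) and 3 of sham-operated mice (3, 192 and 12). No allele, transgene or drug is named for any group, and sham muscle was told apart by its title, since its treatment entry also names transplantation. A library is called by its group and its mouse, as in after 5. The sources used here do not say how long after transplantation tissue was taken, nor by which markers the MuSCs were isolated.

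Myostatin is a hormone-like factor made chiefly by muscle fibres that limits muscle size, and animals without it carry enlarged muscles. Myostatin, GDF11 and the activins (dimers of the Inhba or Inhbb products) bind a type II receptor, ACVR2A or ACVR2B. It then engages a type I receptor, and the complex phosphorylates SMAD2 and SMAD3. The type I receptors among the genes described here are ALK4 (encoded by Acvr1b) and ALK7 (encoded by Acvr1c). They are not the only ones these ligands use, and not every ligand uses both. Follistatin (Fst) and follistatin-like 3 (Fstl3) wrap around these ligands outside the cell and keep them from their receptors.

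Mstn, Gdf11, Inhbb, Acvr1b and Fstl3 separated the tissues below, and promoters are shown for Mstn, Gdf11 and Fstl3 alone. Mstn was higher in muscle, and its close relative Gdf11 and the antagonist gene Fstl3 were higher in MuSCs. Each promoter shown is the 250 bases before the annotated start in RefSeq (build GRCm38.p6), written 5′ to 3′ on the gene's strand. They lie at chr1:53061390-53061639 (plus strand) for Mstn, chr10:128891719-128891968 (minus strand) for Gdf11 and chr10:79777024-79777273 (plus strand) for Fstl3. Capitals mark CANNTG, the letters that basic helix-loop-helix factors such as MyoD bind, and TATAAA, the letters of the TATA box. Both were searched on both strands (TATAAA on the other strand reads TTTATA).
Mstn promoter: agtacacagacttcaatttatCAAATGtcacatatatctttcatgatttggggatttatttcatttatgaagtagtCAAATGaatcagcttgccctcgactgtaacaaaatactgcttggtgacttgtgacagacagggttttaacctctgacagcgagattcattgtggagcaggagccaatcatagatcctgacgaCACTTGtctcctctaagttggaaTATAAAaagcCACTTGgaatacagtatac
Gdf11 promoter: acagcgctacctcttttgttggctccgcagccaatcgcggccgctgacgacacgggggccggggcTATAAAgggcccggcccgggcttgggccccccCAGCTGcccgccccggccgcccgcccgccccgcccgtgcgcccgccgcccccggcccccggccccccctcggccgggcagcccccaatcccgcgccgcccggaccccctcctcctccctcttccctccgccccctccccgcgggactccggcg
Fstl3 promoter: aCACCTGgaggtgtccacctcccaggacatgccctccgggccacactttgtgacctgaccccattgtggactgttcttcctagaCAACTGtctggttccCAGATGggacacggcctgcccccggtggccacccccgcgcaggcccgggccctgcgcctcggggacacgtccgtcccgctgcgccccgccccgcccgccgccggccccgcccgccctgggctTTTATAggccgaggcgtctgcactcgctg
The Mstn stretch held 4 CANNTG matches and 1 TATAAA match, and its GC content was 38.4%. The Gdf11 stretch held 1 CANNTG match, which reads CAGCTG, and 1 TATAAA match, with a GC content of 81.2%. The Fstl3 stretch held 3 CANNTG matches and 1 TATAAA match, with a GC content of 71.2%. The TATAAA match began at base 222 of 250 in Mstn and Fstl3, and at base 66 in Gdf11, farther from the start. Of 32851 mouse promoters of this length, 66.2% held CANNTG, 13.0% CAGCTG and 12.4% TATAAA, and the median GC content was 52.4%. A promoter was found for 9 of the 10 genes, Fst being the other. Inhba also had 1 TATAAA match, with 43.2% G and C. The stretches at the first listed start of Inhbb, Acvr1b, Acvr1c, Acvr2a and Acvr2b held none and had GC contents of 68.0 to 82.0%. Of these, Inhbb and Acvr1b also separated the tissues, so a TATAAA match was not shared by all genes that did. These matches describe letters and do not show binding.

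Libraries held 17.09 to 22.98 M estimated counts (M for mega) and 17873 to 20284 genes with a count. MuSC libraries carried Pax7, the transcription factor that defines these cells, at 41.4 to 97.9 CPM (counts scaled to the library's total) against 0.326 to 1.29 in muscle, and muscle carried creatine kinase Ckm at 12900 to 21100 CPM against 2.69 to 101 in MuSCs. Spelling of the description labels divides the MuSC libraries into those that begin with a number (after 5, before 5 and before 11) and those that begin with F (after 6, before 6 and after 11), called number-first and F-first below. Of the 13512 genes tested in MuSCs, 56.8% did not overlap between these label sets (28.2% higher in number-first and 28.6% lower). Among the 10 genes, Inhba and Acvr2a were higher and Gdf11 lower in number-first libraries without overlap. The sum of FPKM was 79.1 to 80.7% of that of TPM in number-first libraries and 97.9 to 99.5% in F-first ones. Mitochondrial genes took 1.2% of counts in after 11 and 4.44 to 6.28% in the other MuSC libraries. Xist exceeded 1 CPM in 14 of 15 libraries and the summed Y-linked genes reached at most 1.22 CPM, which goes against the label of male. The muscle libraries stand in separate tables, the 2-sham table (transplanted 4, 14 and 94; sham 3 and 192) and the 1-sham table (transplanted 5, 6 and 11; sham 12).

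The first comparison set the level of each gene in MuSCs beside that in muscle, in TPM, a transcript abundance per length that can be compared between genes of a library. By median, Gdf11, Fstl3, Fst and Inhbb were the most abundant of the 10 in MuSCs, where Mstn was scarce, and Mstn, Acvr1b and Acvr2a were the most abundant in whole muscle. Inhba exceeded the other 9 in after 5, at 123.41 TPM. Of the 10 genes, 5 did not overlap between the 6 MuSC and 9 muscle libraries, 3 of them higher in MuSCs and 2 higher in muscle. Over the 15685 genes compared, 54.6% did not overlap, 37.3% higher in MuSCs and 17.2% higher in muscle, so the share of the 10 genes was near that background. The tissues are in separately made tables and no test was run across them. In bulk RNA, fewer cells of a type and less RNA per cell cannot be told apart.

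**Figure D1:**
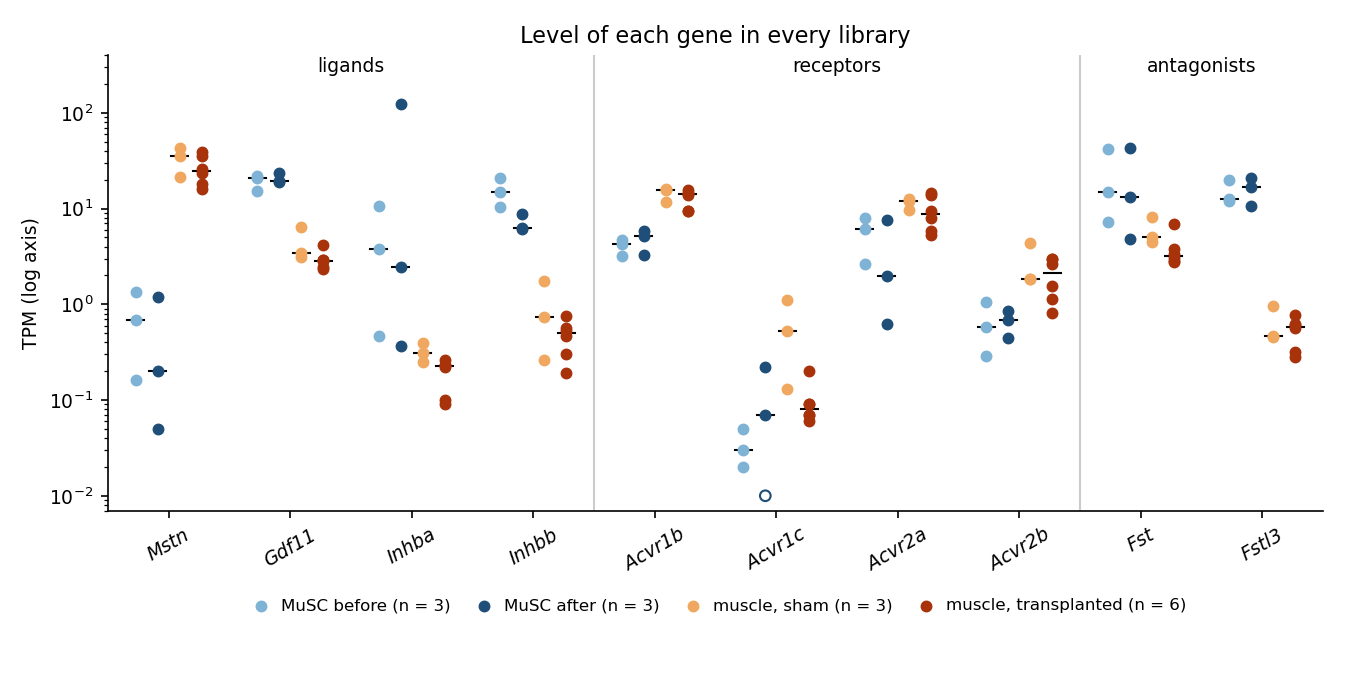
Level of the 10 genes in TPM on a log axis, 1 point per library, by group, with a black line at each group's median. The open circle at the foot marks Acvr1c in after 6, listed at 0. Mstn lies between 15.87 and 43.21 TPM in muscle and at no more than 1.33 in MuSCs, and Gdf11, Inhbb and Fstl3 lie the other way round.

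Among the ligands, Mstn (ENSMUSG00000026100.7) had a median of 26.1 TPM in muscle (15.87 to 43.21) and 0.445 TPM in MuSCs (0.05 to 1.33), 58.5 times higher in muscle by median. Gdf11 (ENSMUSG00000025352.7), whose mature product is nearly that of myostatin, had a median of 20.1 TPM in MuSCs (15.21 to 23.76) and 2.93 TPM in muscle (2.35 to 6.39). Mstn was thus 84.4 to 93.4% of the summed Mstn and Gdf11 TPM in muscle libraries and 0.21 to 6.02% in MuSC libraries. Inhbb (ENSMUSG00000037035.6), the activin beta-B subunit, had a median of 9.61 TPM in MuSCs (6.18 to 21.05) and 0.53 TPM in muscle (0.19 to 1.76). Inhba (ENSMUSG00000041324.15), the activin beta-A subunit, ranged widely in MuSCs, from 0.37 to 123.41 TPM with a median of 3.1, and stood at 0.09 to 0.39 TPM in muscle. The lowest MuSC library and the highest muscle library overlapped for Inhba.

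Among the receptors, Acvr1b (ENSMUSG00000000532.12) was the only one whose tissues did not overlap, at 9.37 to 15.86 TPM in muscle (median 14.3) and 3.2 to 5.9 TPM in MuSCs (median 4.5). Acvr2a (ENSMUSG00000052155.6) had a median of 9.56 TPM in muscle (5.35 to 14.66) and 4.39 TPM in MuSCs (0.62 to 7.88). Acvr2b (ENSMUSG00000061393.15) stood below Acvr2a in both tissues, with medians of 1.83 TPM in muscle and 0.63 TPM in MuSCs. Acvr2a was 73.2 to 87.3% of the summed Acvr2a and Acvr2b TPM in muscle and 41.9 to 91.9% in MuSCs, where after 11 had the lowest share. Acvr1c (ENSMUSG00000026834.14), a receptor best known from fat cells, was the lowest of the 10 by median in both tissues, at 0.09 TPM in muscle (0.06 to 1.1) and 0.04 TPM in MuSCs (0 to 0.22).

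Of the antagonists, Fstl3 (ENSMUSG00000020325.11) had a median of 14.7 TPM in MuSCs (10.61 to 20.72) and 0.56 TPM in muscle (0.28 to 0.96), 26.3 times higher in MuSCs. Fst (ENSMUSG00000021765.10) had a median of 14.0 TPM in MuSCs (4.76 to 42.81) and 3.8 TPM in muscle (2.79 to 8.22), with overlap. Summed antagonist TPM per summed ligand TPM was 0.423 to 1.16 in MuSC libraries and 0.0959 to 0.203 in muscle libraries, which did not overlap.

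By median TPM the order in MuSCs was Gdf11, Fstl3, Fst, Inhbb, Acvr1b, Acvr2a, Inhba, Acvr2b, Mstn and Acvr1c. Neighbours in that order overlapped in their libraries' ranges except Inhbb and Acvr1b. The order in muscle was Mstn, Acvr1b, Acvr2a, Fst, Gdf11, Acvr2b, Fstl3, Inhbb, Inhba and Acvr1c, and of these neighbours only Mstn and Acvr1b did not overlap.

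The MuSC comparison asked how endogenous MuSCs differed after transplantation from those before it. In edgeR's quasi-likelihood test none of the 9 genes with enough counts was called (adjusted p under 0.05), where 0.0% of the 13512 genes tested were called. At an unadjusted p under 0.05 stood 0 of the 9 genes and 2.26% of all genes (305), and DESeq2 called 16 of all genes (0.118%) and 0 of the 8 for which it gave an adjusted p, Inhba having none. With the label set as a term, Inhba and Inhbb stood at an unadjusted p under 0.05 in edgeR (2 of the 9), where 3.27% of all genes did (442), and 0 genes were called. Acvr1b and Acvr2b did not overlap between the groups in CPM, both higher after, where 6.33% of tested genes did not overlap (3.35% higher after). The largest difference belonged to Inhba, whose highest library was after 5, at 542 CPM. Inhbb was lower after transplantation in 3 of 3 mice, without passing the test, and in mouse 11 the libraries come from different label sets. Of the 9 fitted log2 differences 5 were positive, with a median of 0.30 against 0.02 over all genes.

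**Figure D2:**
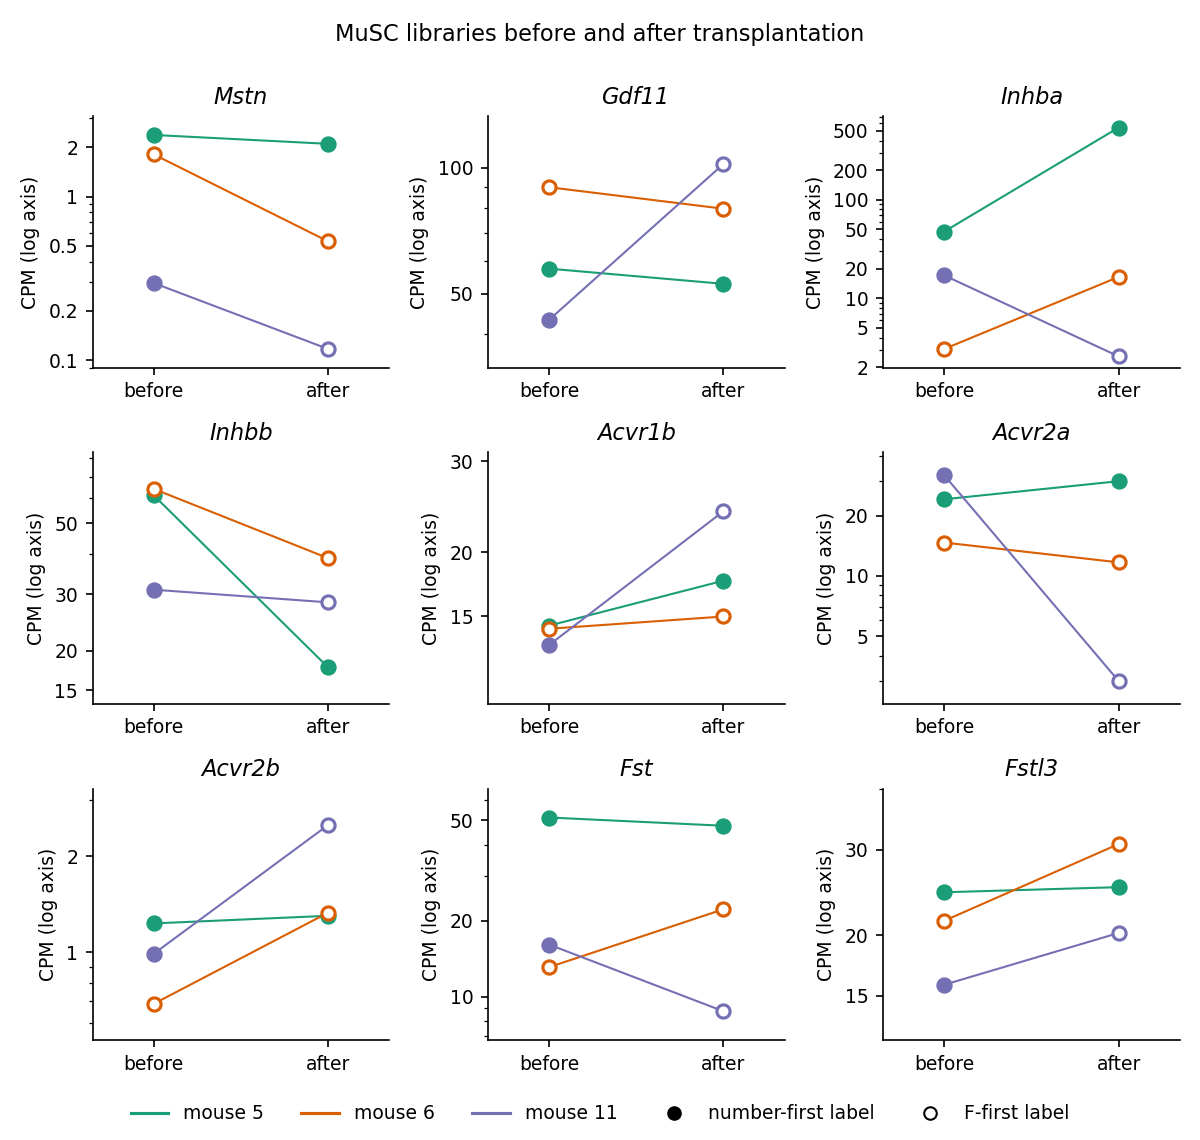
CPM on log axes of the 9 genes with enough counts in MuSCs before and after transplantation, 1 line per mouse; filled points are number-first libraries and open points F-first ones. Inhba in after 5 stands at 542 CPM, and all 3 mice are lower after for Inhbb and Mstn and higher after for Acvr1b, Acvr2b and Fstl3.

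Inhba stood at 542 CPM in after 5, 16.5 in after 6 and 2.57 in after 11, and at 47.6, 3.06 and 17.1 CPM before in the same mice. After 5 was 11.4-fold above the next library, and the libraries after and before overlapped with or without it. The log2 difference was 3.05 ± 1.81 (SE; edgeR adjusted p = 0.873), and it was -1.26 without after 5. After 5 was the only number-first library after, so the value without it cannot be told apart from the label sets. With the label set as a term the difference was 2.98. Within label sets it was 4.07 in the number-first libraries (adjusted p = 0.0778, with 1 library after) and 1.63 in the F-first ones, and 1.51 with the mouse as a block. All 3 number-first libraries also stood above all 3 F-first libraries for this gene. Some markers of fibroadipogenic progenitors, the stromal cells between fibres, were high in after 5 as well, picked here after their values were seen: Smoc2 was at 241 CPM against 1.68 to 30.1 in the other MuSC libraries. Ly6a was at 26.3 CPM there against 1.78 to 4.97, and Pdgfra at 2.69 against 0.106 to 0.977. Gsn, the most abundant gene on that list, was at 248 CPM in after 5, 743 in after 11 and 198 to 302 in the others, and Mfap5 had its highest level before transplantation, at 5.48 TPM against at most 0.11 after. The summed TPM of the 10 genes on that marker list was 342 in after 5, 303 in after 11 and 119 to 140 in the others, while Dcn, Lum and Dpp4 were at 0 in every MuSC library. Their part in the Inhba value was not tested.

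Inhbb was at 17.7, 38.9 and 28.3 CPM after transplantation in mice 5, 6 and 11, and at 61.2, 64.1 and 31.0 CPM before. It was lower after in each mouse, though after 6 stood above before 11, so the groups overlapped. The log2 difference was -0.88 ± 0.41 (SE; edgeR adjusted p = 0.873). It was -1.37 within the number-first libraries, -0.94 within the F-first ones and -1.15 with the label set as a term (edgeR adjusted p = 0.999).

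Mstn was barely present in MuSCs, with 42, 10 and 2 counts after and 56, 29 and 6 before in mice 5, 6 and 11. These are 2.1, 0.532 and 0.117 CPM after and 2.38, 1.81 and 0.296 CPM before. Each mouse was lower after, but the spread between mice exceeded the step within them, and the log2 difference was -0.70 ± 1.07 (SE; edgeR adjusted p = 0.873). It was -0.19 without after 11 and -2.18 without after 5, which leaves only F-first libraries after. The summed TPM of the myofibre markers, from the cells that make most myostatin, was also lower after in each mouse. It was 7830, 6240 and 2030 after and 9310, 13500 and 4760 before. Mylpf (533.03 to 7335.81 TPM) and Acta1 (282.07 to 3963.65 TPM) had the highest medians of that list in MuSCs. Pvalb reached at most 0.07 TPM and Myh4 at most 2.32 TPM there, so the sum is not a measure of mature fibres alone. Single markers varied: in mouse 5 Ckm was at 55.6 CPM after and 47.4 before, and Myh4 at 6.74 and 6.5. In mice 6 and 11 both markers were lower after. Their part in the Mstn values was not tested. The 3 genes higher after in every mouse were Acvr1b, Acvr2b and Fstl3, and the 2 lower in every mouse were Mstn and Inhbb. Of all tested genes 21.1% went 1 way in every mouse. For each gene the step in mouse 11, number-first before and F-first after, cannot be told apart from the label sets. Gdf11 was at 52.8, 79.8 and 102 CPM after and 57.4, 89.8 and 43.3 CPM before, a log2 difference of 0.30 ± 0.38. Only mouse 11 was higher after, and in that mouse the libraries come from different label sets. All 3 F-first libraries stood above all 3 number-first ones for Gdf11.

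Acvr1b, the ALK4 receptor gene, was at 17.6, 15 and 24.0 CPM after and 14.4, 14.2 and 13.2 CPM before in mice 5, 6 and 11. Every library after thus stood above every library before, by a log2 difference of 0.44 ± 0.30 (SE; edgeR adjusted p = 0.873). Acvr2b was at 1.3, 1.33 and 2.51 CPM after and 1.23, 0.687 and 0.987 before, a log2 difference of 0.81 ± 0.52 (adjusted p = 0.873 in edgeR). In TPM the Acvr2b groups overlapped, at 0.68, 0.44 and 0.86 after and 0.58, 0.29 and 1.06 before. The ratio of CPM to the authors' TPM for Acvr2b varied 3.25-fold among MuSC libraries. Acvr2a, the other type II receptor gene described here, was at 29.8, 11.7 and 2.98 CPM after and 24.2, 14.7 and 31.9 before. The lowest value was again after 11. Its log2 difference was -0.67 ± 0.75, which was -0.19 without after 11 and -1.70 without after 5. Without after 5 the libraries after were all F-first, and all 3 number-first libraries stood above the F-first ones for this gene. Acvr1c had 9, 0 and 6 counts after and 7, 2 and 3 before, too few to test; the 0 in after 6 allows up to 0.16 CPM (3 counts).

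Fst was at 47.5, 22.2 and 8.77 CPM after and 51.2, 13.1 and 16.1 before in mice 5, 6 and 11. Mouse 5 was the highest at both times, and the log2 difference was -0.03 ± 0.73 (SE; edgeR adjusted p = 0.988). Fstl3 was at 25.1, 30.8 and 20.2 CPM after and 24.5, 21.4 and 15.8 before. It was higher after in every mouse with overlap between the groups, and the log2 difference was 0.30 ± 0.31 (adjusted p = 0.873 in edgeR).

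**Figure D3:**
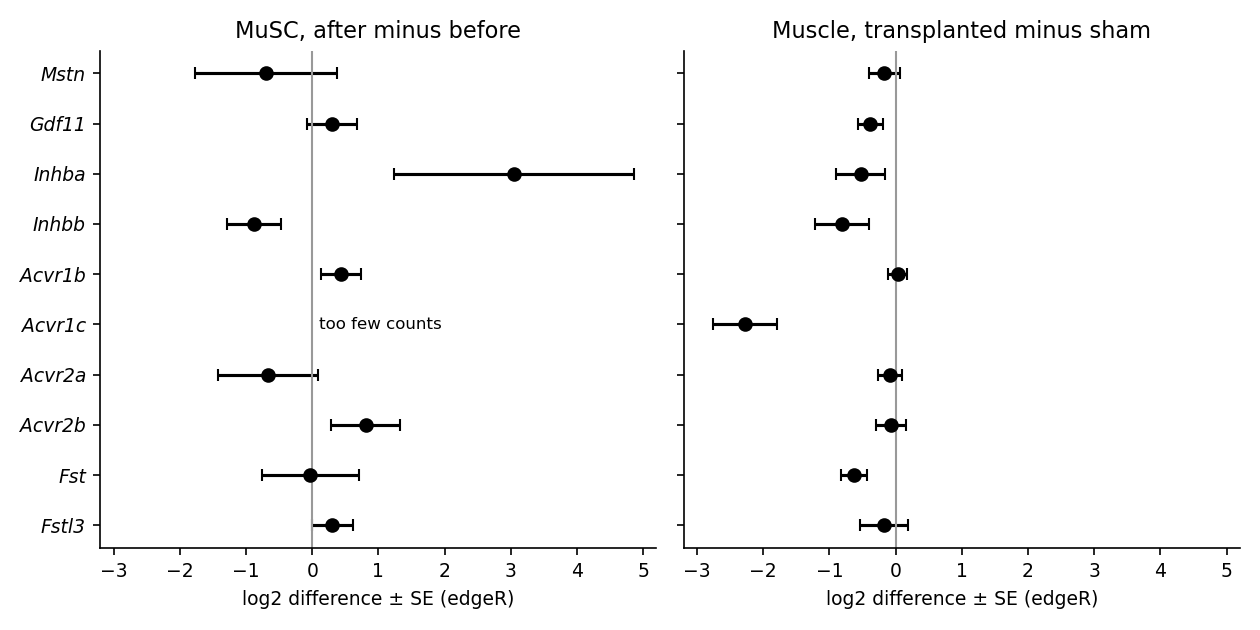
Log2 difference with its standard error for each gene, after minus before in MuSCs (left, 3 against 3 libraries) and transplanted minus sham in muscle (right, 6 against 3), from edgeR. Inhba has the widest error in MuSCs (3.05 ± 1.81), and Acvr1c lies farthest from 0 in muscle (-2.28 ± 0.48); no gene passed the adjusted threshold.

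The muscle comparison asked how hindlimb muscle of transplanted mice differed from that of sham-operated mice. None of the 10 genes was called by edgeR at an adjusted p under 0.05, where 0.0% of 14375 genes tested were called. Below an unadjusted p of 0.05 stood Acvr1c and Fst, both lower in transplanted muscle, where 7.08% of all genes did (1018; 4.08% lower). DESeq2 called 1 of the 10, Acvr1c (adjusted p = 0.0275 in DESeq2), and 6 of all genes (0.0417%). No gene of the 10 separated all 6 transplanted from all 3 sham libraries, where 2.11% of tested genes did. Of the 10 log2 differences 9 were negative, with a median of -0.28 against 0 over all genes. Within the 1-sham table sham 12 stood above all 3 transplanted libraries for 7 of the 10 genes, where 32.4% of all genes did so. Within the 2-sham table both shams stood above the transplanted libraries for 2 of the 10, Inhba and Acvr1c, where 7.94% of all genes did.

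Acvr1c was at 4.13, 0.955 and 5.04 CPM in shams 3, 192 and 12. In transplanted muscle it was at 0.512, 0.714 and 0.538 CPM in mice 4, 14 and 94 and at 0.628, 1.66 and 0.326 CPM in mice 5, 6 and 11. Each transplanted library lay below every sham of its own table, and 5 of 6 lay below the lowest sham of all. The log2 difference was -2.28 ± 0.48 (SE; edgeR adjusted p = 0.686). It was -2.10 within the 2-sham table, -2.52 within the 1-sham table and -2.65 to -1.81 when any 1 library was left out. When low counts were left in, edgeR called Acvr1c (adjusted p = 0.0275) and 12 of all genes (0.0454%). Gm13544 and Gm13545 overlap Acvr1c on the opposite strand, and the use of strand in counting is unstated.

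The adipocyte markers Adipoq and Plin1 followed Acvr1c in part across these libraries. Adiponectin (Adipoq), a hormone of fat cells, was at 21.8, 6.31 and 71.7 CPM in shams 3, 192 and 12, and at 3.12, 8.44, 8.98, 9.66, 31.9 and 5.03 CPM in transplanted 4, 14, 94, 5, 6 and 11. Perilipin 1 (Plin1), which coats their lipid droplets, was at 26.7, 5.41 and 56.8 CPM in the shams and 3.17, 8.3, 6.45, 7.82, 24.1 and 5.17 CPM in the transplanted libraries. Sham 12 and sham 3 were high for both markers and for Acvr1c, and transplanted 6 was the highest transplanted library for all 3. Sham 192 departed from this: it stood above transplanted 4, 14 and 94 for Acvr1c but below transplanted 14 and 94 for both markers. For Adipoq, though not for Acvr1c or Plin1, transplanted 6 stood above sham 3. Of the 12 adipocyte markers 11 had negative differences and 9 had an unadjusted p under 0.05, all lower, where 4.08% of all genes did, with a median of -1.25. Their summed TPM was 292 to 1600 in sham and 221 to 800 in transplanted muscle, and none of the 12 was at 0 throughout. Other marker lists went both ways, where 7205 of all 14375 genes were negative. Of the fibroadipogenic progenitor genes 8 of 10 were negative (4 with an unadjusted edgeR p under 0.05). Their summed TPM was 391 to 534 in transplanted and 493 to 973 in sham muscle. Of the tenocyte genes 5 of 5 were negative (2 at that p), with 7.9 to 36.1 and 18.1 to 47.9 summed TPM. Of the macrophage genes 7 of 7 were negative (0 at that p), with 23.6 to 39.3 and 30.2 to 62.8. Nerve genes were negative in 4 of 5. Myofibre genes were positive in 10 of 10 (median 0.16), endothelial genes in 4 of 6 and muscle stem cell genes in 4 of 8. The part of these lists in the differences of Acvr1c and the other 9 genes was not tested.

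**Figure D4:**
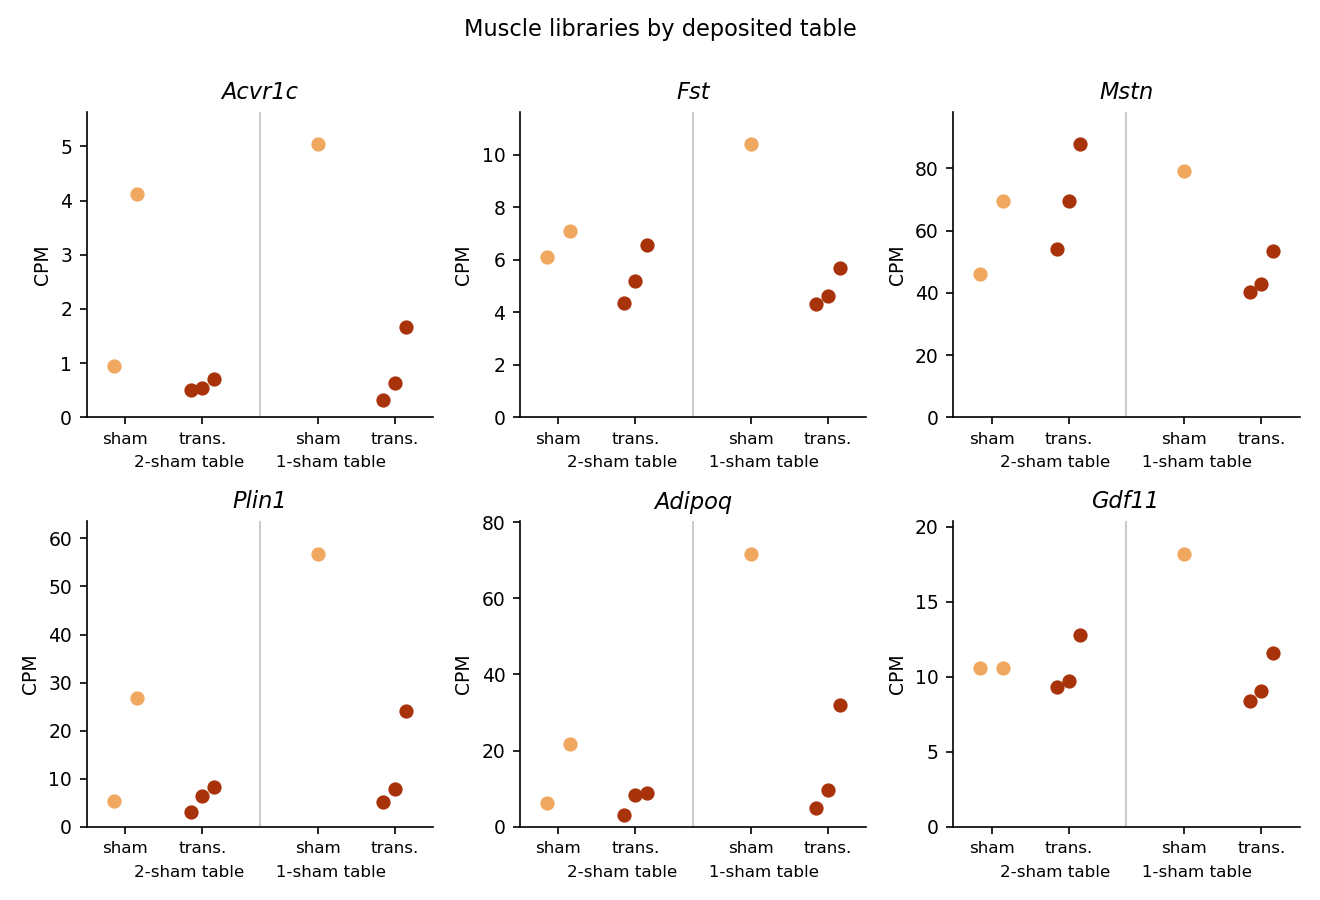
CPM of Acvr1c, Fst, Mstn and Gdf11 and of the adipocyte markers Plin1 and Adipoq in the 9 muscle libraries, 1 point each, by deposited table and group (trans., transplanted). Sham 12, the lone sham of the 1-sham table, is the highest library for Acvr1c, Fst, Gdf11, Plin1 and Adipoq.

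The 5 genes whose CPM followed Acvr1c most closely over the 9 muscle libraries were Klb, C2, Sncg, Cmpk1 and Hcar1, chosen by Pearson's r of log2 CPM centred within each table among 12413 genes. Klb encodes beta-Klotho, a co-receptor for FGF21, and Hcar1 the lactate receptor. Their r was 0.96 to 0.974, and 0.814 to 0.878 without the 2 libraries farthest from the median of Acvr1c. The points share libraries and sham 12, so these values are a description. For Mstn the 5 closest genes were Gid4, Cacna2d1, Ash1l, Twist1 and Sorbs2, with r of 0.981 to 0.989, and 0.966 to 0.986 without the 2 farthest libraries.

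Fst was at 6.11, 7.11 and 10.4 CPM in shams 3, 192 and 12. It was at 5.21, 4.37, 6.56, 5.7, 4.33 and 4.61 CPM in transplanted 4, 14, 94, 5, 6 and 11, so that 5 of 6 lay below the lowest sham and transplanted 94 above it. The log2 difference was -0.63 ± 0.19 (SE; edgeR adjusted p = 0.686). Without sham 12 it was -0.30, and it was -1.08 in the 1-sham table alone. Fstl3 was low throughout, at 0.697, 0.477 and 1.06 CPM in the shams and 0.326 to 1.01 CPM in transplanted muscle. Its log2 difference was -0.18 ± 0.36, and all libraries of the 2-sham table lay below all those of the 1-sham table, where 18.6% of all genes separated the tables.

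Mstn was at 45.9, 69.6 and 79.1 CPM in shams 3, 192 and 12 and at 87.7, 54.0, 69.4, 42.9, 53.4 and 40.2 CPM in transplanted 4, 14, 94, 5, 6 and 11. The highest library was transplanted and so was the lowest. The log2 difference was -0.17 ± 0.23 (SE; edgeR adjusted p = 0.889). The tables differed in sign, at 0.28 in the 2-sham table and -0.79 in the 1-sham table, and without sham 12 the difference was 0.29. A test of the difference between tables was not run.

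Gdf11 was at 10.6, 10.6 and 18.2 CPM in shams 3, 192 and 12. It was at 9.73, 9.33, 12.8, 9.03, 8.38 and 11.6 CPM in the transplanted libraries, in the order given for Mstn. Sham 12 was the highest, and the log2 difference of -0.38 ± 0.19 (SE; edgeR adjusted p = 0.716) became 0.01 without it. Inhbb was at 2.63, 0.848 and 5.28 CPM in the shams and 0.698 to 2.85 CPM in transplanted muscle, a log2 difference of -0.81 ± 0.41 (edgeR adjusted p = 0.717) that was -0.38 without sham 12. Inhba was at 2.14, 1.59 and 1.15 CPM in the shams and 0.506 to 1.68 CPM in transplanted muscle, with a log2 difference of -0.53 ± 0.37. Both activin subunit genes overlapped between the groups.

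The other receptors showed small differences in muscle. Acvr1b was at 42.8, 53.3 and 49.4 CPM in shams 3, 192 and 12 and at 37.1 to 59.0 CPM in transplanted muscle, a log2 difference of 0.03 ± 0.14 (SE; edgeR adjusted p = 0.979). Acvr2a was at 46.0, 52.7 and 50.6 CPM in the shams and 30.2 to 68.6 CPM in transplanted muscle. Its log2 difference of -0.09 ± 0.18 was 0.25 in the 2-sham table alone and -0.59 in the 1-sham table. Acvr2b was at 3.96, 6.89 and 3.89 CPM in the shams and 2.42 to 6.1 CPM in transplanted muscle, a log2 difference of -0.07 ± 0.22.

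Of 44 other genes of the pathway, 30 were tested in MuSCs and 36 in muscle, and 0 were called in either (0.0% of all genes in each). In MuSCs 14 had positive and 16 negative differences, 0 with an unadjusted p under 0.05, and their median was -0.02. In muscle 12 were positive and 24 negative, with a median of -0.06, and 5 of 36 had an unadjusted p under 0.05, where 7.08% of all genes did. Those were Dcn (-0.32 ± 0.10, SE), Tgfbr3 (-0.30 ± 0.12) and Tgfbi (-0.42 ± 0.16), lower in transplanted muscle, and Smad3 (0.23 ± 0.09) and Wfikkn2 (0.35 ± 0.15), higher. Decorin (Dcn) binds TGF-beta family ligands in the matrix and is also on the marker list of fibroadipogenic progenitors, Tgfbr3 encodes betaglycan, the co-receptor that inhibin uses, and WFIKKN2 binds myostatin and GDF11. All 5 had an edgeR adjusted p of 0.686 and were chosen for naming by that unadjusted p, except Smad3 and Wfikkn2, which were named by role.

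The signal carriers were present in both tissues. Smad3 had a median of 19.3 TPM in sham muscle and 9.49 TPM in MuSCs before transplantation, and Smad2 of 5.84 and 21.3 TPM. Log2 differences in MuSCs were -0.30 ± 0.32 (SE) for Smad2, -0.20 ± 0.26 for Smad3 and -0.17 ± 0.27 for Smad4, the shared partner. Smad7, a feedback inhibitor, differed by 0.32 ± 0.30 in MuSCs and -0.43 ± 0.22 in muscle. Furin, which cleaves ligand precursors, differed by 0.51 ± 0.32 and 0.17 ± 0.09, and Tgfb1 by 0.69 ± 0.40 and -0.06 ± 0.19. The type I receptor Tgfbr1 differed by -0.12 ± 0.73 and 0.06 ± 0.12, and Fstl1 by -0.24 ± 0.35 and -0.36 ± 0.17. In muscle Smad2 differed by -0.02 ± 0.10 and Smad4 by 0.12 ± 0.08. All of these named by role had edgeR adjusted p values of 0.686 or more. The 9 genes on the list of SMAD2/3 targets were all negative in muscle, with a median of -0.16. Over all genes 7205 of 14375 were negative. Of the 9, only Tgfbi had an unadjusted edgeR p under 0.05, and 0 were called. In MuSCs 5 of 8 tested were positive, with a median of 0.30, where 6951 of 13512 genes were positive.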

How the data were processed

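The authors deposited 3 tables (MuSCs, 2-sham muscle, 1-sham muscle), which give 56953 genes as estimated counts, TPM and FPKM, per the file headers. Since the authors' estimated counts hold fractions, they were rounded. The authors' TPM and the authors' FPKM are scaled for length and library total. Trizol extraction and the NEBNext Ultra RNA kit are named in the labels' protocols. GRCm38 and mm10 are named in the submitters' processing notes; for the aligner, quantifier, annotation release and strand setting, the sources used here give nothing. Of 52029 genes shared with the GRCm38 annotation used here, 1446 had the same coordinates and 0 of the 10 described, so coordinates are printed for RefSeq promoters alone. In that annotation 6 of the 10 genes overlap a gene on the opposite strand (Inhba, Acvr1c, Acvr2a, Acvr2b, Fst and Fstl3), and the partners' highest count in any library was 1329.91 for Orc4 (Acvr2a), 17 for the partners of Acvr1c and 0 to 7 for the others. Another 3 columns, of 1 library that matched no sample's labels, were not used.

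Groups come from the labels. Tests used edgeR 4.0.16 (R 4.3.3), quasi-likelihood, 2-sided, with filterByExpr (minimum count 10), TMM and Benjamini-Hochberg adjustment over all genes tested (threshold 0.05). MuSCs were tested as 3 against 3 and muscle as 6 against 3 with the table as a term. The standard error is the log2 difference over the root of F. CPM are rounded counts over the TMM-scaled library size. Alternatives included DESeq2 1.42.0 and limma 3.58.1 on log2(TPM + 1). Every fit ran on the whole table, and the edgeR fits were tested on simulated counts, where each recovered 200 of 200 genes changed by 2 on the log2 scale (MuSC design, 13724 genes, 9 false calls; muscle design, 14244 genes, 4 false calls). The simulated counts had the same dispersion (spread between replicates) for every gene and no label-set or table effect. Only well-counted genes were changed, so the recovery does not give the power in these libraries. Mouse numbers are shared by both MuSC groups and the labels call the cells autologous, so the pairing comes from the labels. Deviations from group means correlated across genes at 0.31 (mouse 5), 0.39 (mouse 6) and -0.45 (mouse 11). Libraries of different mice in the same label set correlated at 0.60 (after 11 with before 6) and 0.53 (after 5 with before 11). The libraries of mice 5 and 6 each share a label set and those of mouse 11 do not. These values therefore do not bear out the pairing by mouse and cannot decide it. Numbers within a muscle group were taken as separate animals, and replicate pairs differed by more than counting noise (chi-square over its degrees of freedom was 16.72 to 461.84 in 13 pairs). Counting limits (3 counts for a 0) cover counting error only.

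Named genes were all 10 members, 10 pathway genes chosen by role (1 of them is not reported here), pathway genes past the threshold, defining cell markers, and the 5 genes most like Acvr1c and Mstn (log2 of CPM + 0.5, mean CPM at least 1). Dcn, Tgfbr3, Tgfbi, Smoc2, Ly6a, Gsn and Mfap5 were named after their values were seen. The members and lists were chosen with earlier results of these data known. Marker lists also covered endothelial cells (MuSC libraries 0.27 to 1.75 summed TPM, muscle 49.8 to 88.5), macrophages (3.29 to 10.3 and 23.6 to 62.8), tenocytes (44.0 to 74.9 and 7.9 to 47.9), nerve (0.51 to 2.06 and 12.6 to 47.7), myofibres (2030 to 13500 and 114000 to 158000) and muscle stem cells (1470 to 2300 and 828 to 1080). The tenocyte sum in MuSCs was mostly Scx (43.09 to 73.34 TPM), while Tnmd, Kera and Fmod were at 0 in every MuSC library. The stem cell sum in muscle was mostly Des (760.6 to 1002.56 TPM), with Pax7 at 0.06 to 0.26 TPM.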

Additional observations from a re-analysis of the deposited data

Results flagged for a closer look

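Within the 6 transplanted muscle libraries, Acvr1c in transplanted 6 stood apart at 1.66 CPM, by a gap larger than Dixon's limit at 95%. The other 5 transplanted libraries held 0.326 to 0.714 CPM. The same library was the highest transplanted one for Adipoq (31.9 CPM) and Plin1 (24.1 CPM), and their part in the value was not tested. Without transplanted 6 the log2 difference of Acvr1c was -2.60 (edgeR adjusted p = 0.479). This was 1 of 20 gaps examined in the 10 genes, and chance alone exceeds the limit in about 1 of 20 groups.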

How the results depend on the processing

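Of the 10 genes, those that could be tested gave 0 calls in MuSCs under 15 alternatives (Acvr1c was tested only with no filter, and Inhba had no adjusted p in DESeq2), and 0 in muscle under 14 of 16. DESeq2, and edgeR with no filter, each called 1 gene in muscle (Acvr1c, log2 difference -2.29 and -2.28). Over all 16 the difference of Acvr1c kept its sign (-2.65 to -0.53, adjusted p 0.0275 to 1). Calls over all genes in MuSCs were 16 with DESeq2, 43 in the number-first set alone and 4 with both after 5 and after 11 left out, and 0 with any 1 library left out. In muscle they were 12 with no filter, 6 with DESeq2, 1 in the 2-sham table and 41 in the 1-sham table, and 0 to 4 when 1 library was left out (4 without sham 192, 2 without transplanted 94). With the mouse as a replicate block the MuSC fit called 0 genes, changed no call, and gave Inhba 1.51 and Inhbb -0.87. In FPKM 6 of the 10 genes did not overlap between the tissues, against 5 in TPM.

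Signs that turned in MuSCs were those of Mstn (0.64) and Acvr2a (0.10) in the number-first set, of Inhba (-0.44 without after 5 and after 11; -1.26 to 4.18 with 1 library left out, negative without after 5 alone) and of Fst (0.37 with the label set as a term, 0.51 and 0.24 in the number-first and F-first sets; -0.80 to 0.82 with 1 library left out). Those in muscle were Mstn (0.28), Gdf11 (0.00), Acvr2a (0.25) and Acvr2b (0.05) in the 2-sham table, and Acvr1b in the 1-sham table (-0.11) and with limma (-0.13). With 1 muscle library left out, Mstn was -0.42 to 0.29, Gdf11 -0.50 to 0.01, Acvr1b -0.07 to 0.12, Acvr2a -0.24 to 0.25 and Acvr2b -0.28 to 0.11. Mstn, Gdf11 and Acvr2a were positive without sham 12 alone. Without after 5 the MuSC libraries after were all F-first. Causes were not tested. On log2(TPM + 1) the median of all genes was -0.14 in MuSCs and -0.11 in muscle. The set-by-set fits and the one without after 5 and after 11 were added after seeing the data, and a lone library there is assumed to vary like the others. At these depths 3 counts are 0.127 to 0.187 CPM, which limits Acvr1c and Mstn in MuSCs.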
